A study of Homo sapiens with 44 samples.

Results

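TRIM proteins, most of them E3 ubiquitin ligases, are named for a tripartite motif of a RING finger, B-box domains and a coiled coil, which not all members hold in full. Many take part in antiviral defense, either by binding viral components or by tuning the signals that run from RNA sensors, Toll-like receptors and cytokine receptors to NF-κB, interferon regulatory factors and STAT proteins, and several are themselves interferon-induced genes. Others act on chromatin (the TIF1 group of TRIM24, TRIM28, TRIM33 and TRIM66), on microtubules (TRIM9, TRIM36, TRIM46 and TRIM67) or in striated muscle (TRIM54, TRIM55 and TRIM63). The data are the open chromatin peaks that the deposited table assigns to a gene named TRIM followed only by a number, which are 660 of 407383 peaks and carry 57 of 23388 gene names.

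Open chromatin was measured by ATAC-seq, in which a transposase cuts accessible DNA, in 44 libraries of Ccd18-Co, a fibroblast line from human colon. Cells in serum-free medium were left unstimulated or were given 1 of 10 cytokines for 1 day, with 4 replicates in each of 11 groups: IL-1β at 0.1 ng/ml, and TNF, IFNγ, IFNα, oncostatin M (OSM), TGF-β1, IL-13, IL-6, IL-17A or IL-22 at 10 ng/ml. All libraries come from this single line, and the labels do not say whether replicates are separate cultures, so p-values measure only the spread between these libraries, which may be technical. Values below are coverage per Mb, that is, the summed coverage of a 500-base peak divided by the coverage total of its library in Mb and by a factor for library composition.

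Libraries held 148.8 Mb (IL-6 replicate 4) to 823.1 Mb (IFNα replicate 2) of coverage, and the unstimulated libraries held 414 ± 81.6 Mb (SD, n = 4). Of 10 fibroblast marker genes, 9 had a peak within 1 kb of their start, with a median of 8.84 coverage per Mb in unstimulated cells, whereas the 5 endothelial markers had a median of 0.538. Start peaks were found for 2 of 5 epithelial markers (2.24 for EPCAM and 4.52 for KRT8) and for 1 of 5 leukocyte markers (4.56 for CD14). In every comparison a peak was called raised or lowered where its limma adjusted p-value over all 407156 tested peaks was under 0.05, and changes are differences of log2(coverage per Mb + 0.5) ± SE, a scale that understates the change of low peaks. All 660 TRIM peaks were tested. Where groups are said not to overlap, this largely follows from the call and is no separate support. It held for all 46 TRIM peaks called with OSM and for 24 of 27 called with TNF. Among all tested peaks, called or not, groups did not overlap at 12.5% with OSM, 8.83% with TGF-β1 and 8.71% with TNF. The shares were 7.62% with IL-1β, 6.42% with IFNγ, 5.81% with IL-13 and 4.67% with IFNα.

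The TRIM peaks were mostly away from gene starts. The table classed 304 as intronic, 227 as distal, 65 as exonic and 64 as promoter. In the GENCODE v44 annotation 300 overlapped the TRIM gene they are assigned to, 115 lay outside it and inside another coding gene, and 85 lay within 1 kb of the start of their gene, which gave 43 genes a start peak. The number per gene ran from 76 for TRIM8 to 1 each for TRIM5, TRIM6, TRIM21, TRIM39 and TRIM50. Of the TRIM8 peaks 40 lay inside the neighboring gene SUFU, all 29 peaks assigned to TRIM32 lay inside ASTN2, in whose intron TRIM32 sits, and none of the 12 TRIM69 peaks overlapped TRIM69 itself. The assignment is by position, and which gene a peak acts on was not measured.

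A few peaks that the results turn on are shown by sequence. Each window holds 200 bases of the + strand of hg38. Capitals mark matches on either strand to the interferon-stimulated response element string (ISRE; GAAA, any 2 bases, GAAA), the STAT-site string TTCNNNGAA (GAS), the AP-1 string TGANTCA and an NF-κB consensus. A match is a string of letters and not a measured binding site. Across all 407383 peaks the ISRE string is in 9.11%, the GAS string in 17.2%, the AP-1 string in 25.7% and the NF-κB string in 8.48%, against 59, 95, 147 and 59 of the 660 TRIM peaks. The first is the start peak of TRIM69 (window chr15:44728658-44728857), shown because it was called with both interferons and holds a GAS and an ISRE string.
TRIM69, start: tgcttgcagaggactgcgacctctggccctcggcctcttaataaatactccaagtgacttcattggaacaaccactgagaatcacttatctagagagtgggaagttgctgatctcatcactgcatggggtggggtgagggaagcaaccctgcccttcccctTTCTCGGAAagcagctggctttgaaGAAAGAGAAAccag
The start peaks of TRIM14 (window chr9:98119223-98119422) and TRIM31 (window chr6:30113931-30114130) each hold an ISRE string, that of TRIM31 on the - strand, and are shown because one was called with IFNα and the other with IFNγ. Most interferon-raised TRIM peaks lack the string. It is in 3 of the 10 raised with IFNα and in 4 of the 12 raised with IFNγ. The share among all interferon-raised peaks was not computed.
TRIM14, start: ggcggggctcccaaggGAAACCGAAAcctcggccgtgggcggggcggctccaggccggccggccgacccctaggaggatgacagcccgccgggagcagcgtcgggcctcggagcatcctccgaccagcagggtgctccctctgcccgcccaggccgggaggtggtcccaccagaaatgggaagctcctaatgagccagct
TRIM31, start: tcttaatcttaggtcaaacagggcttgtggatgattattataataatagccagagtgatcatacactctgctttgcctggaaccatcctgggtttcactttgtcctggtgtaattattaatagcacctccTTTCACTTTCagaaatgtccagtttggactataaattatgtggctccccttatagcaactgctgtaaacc
The intronic peak of TRIM37 (window chr17:59074574-59074773) and a peak assigned to TRIM8 in an intron of SUFU (window chr10:102604501-102604700) had the largest TNF responses of their genes. The TRIM37 window holds a pair of GAS strings and an NF-κB string, the second GAS string overlapping the NF-κB string. The TRIM8 window holds a pair of AP-1 strings, and its NF-κB string lies outside the window.
TRIM37, intronic: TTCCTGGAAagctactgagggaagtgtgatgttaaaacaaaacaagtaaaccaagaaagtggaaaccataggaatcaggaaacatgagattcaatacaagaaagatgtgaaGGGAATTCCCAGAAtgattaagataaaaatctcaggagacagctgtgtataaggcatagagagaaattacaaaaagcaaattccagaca
TRIM8, intronic: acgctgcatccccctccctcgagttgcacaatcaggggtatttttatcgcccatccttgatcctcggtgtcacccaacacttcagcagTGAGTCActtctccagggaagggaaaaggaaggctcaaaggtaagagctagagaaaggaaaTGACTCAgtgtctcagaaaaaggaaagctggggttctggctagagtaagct

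The share of TRIM peaks that changed was close to that of all peaks in most comparisons. At least 1 cytokine raised or lowered 95 TRIM peaks of 39 genes, 14.4% of them, against 13.3% of all tested peaks, and 565 TRIM peaks were called for none. TRIM peaks were more open than all tested peaks, with medians of 1.06 and 0.772 coverage per Mb. The shares here and for the gene lists below are not matched for this level. IFNα called 10 TRIM peaks (1.52% of them) where it called 0.651% of all tested peaks, and all 10 were raised (0.356% of all peaks raised, 0.295% lowered). This count fell to 5 without unstimulated replicate 3 or IFNα replicate 2 and to 6 without unstimulated replicate 4, and was 14 without IFNα replicate 3. IFNγ called 14 where 1.57% of all peaks were called, with 12 raised (background 1.33%) and 2 lowered (0.232%). TNF called 27 (background 4.14%), with 24 raised (2.68%) and 3 lowered (1.46%). IL-1β called 22 (3.19%), with 13 raised (1.44%) and 9 lowered (1.75%), and these shares were near the background. OSM called 46 (5.18%), with 43 raised (4.13%) and 3 lowered (1.05%). TGF-β1 called 28 (3.97%), with 6 raised (1.10%) and 22 lowered (2.87%). IL-13 called 10 (1.40%), with 8 raised (0.756%) and 2 lowered (0.645%), and IL-6 called 1, which was raised (0.0646% of all peaks called, 0.0344% raised and 0.0302% lowered).

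**Figure D1:**
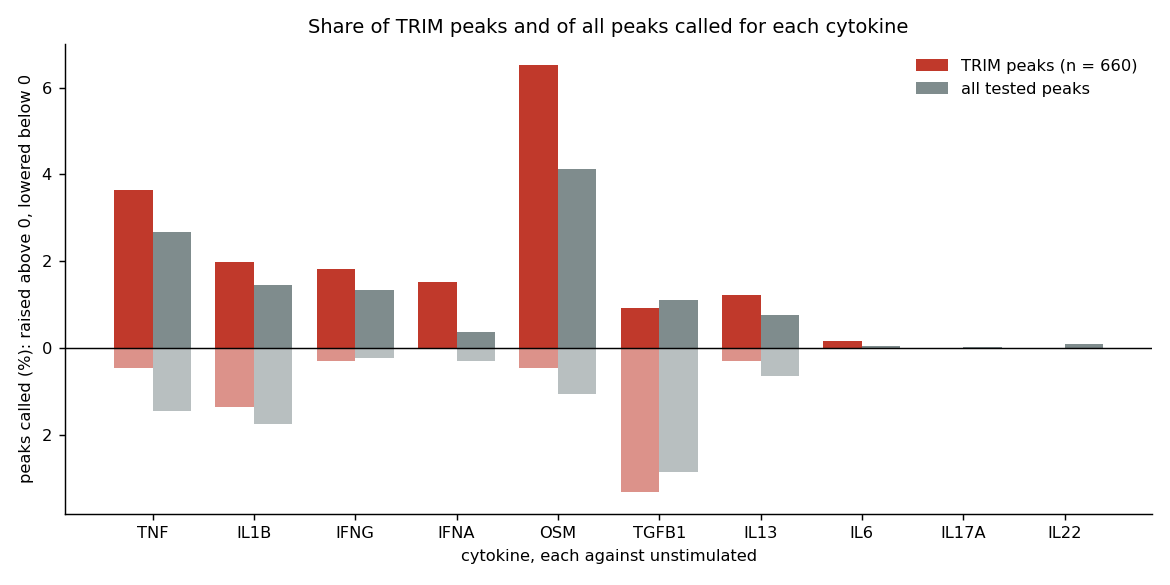
Percentage of the 660 TRIM peaks (red) and of all tested peaks (gray) called with each cytokine against unstimulated, with raised peaks drawn above 0 and lowered peaks in paler color below. With IFNA 1.52% of TRIM peaks were raised and none was lowered, and with OSM 43 TRIM peaks were raised and 3 lowered.

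A minority of the peaks at antiviral TRIM genes rose with interferon. The list of interferon-linked antiviral TRIM genes, chosen with earlier results of these data known, has 10 members with 94 peaks. IFNα raised 8 of them (8.51%, against 0.356% of all tested peaks), IFNγ raised 7 (7.45%, against 1.33%) and neither lowered any, while OSM also raised 7 (against 4.13%). The median change of the 94 peaks was 0.21 with IFNα and 0.15 with IFNγ, against medians of -0.01 for all tested peaks with either. Within 1 kb of the start, 9 of the 10 genes had a peak (TRIM5, the retroviral restriction factor, had none), and IFNα raised those of TRIM14, TRIM22 and TRIM69 whereas IFNγ raised those of TRIM22 and TRIM69. The start peaks of TRIM21, TRIM25, TRIM26, TRIM34, TRIM38 and TRIM56 were called with neither, with changes between -0.25 and 0.58. As a reference for the treatment itself, 11 of 12 interferon-response genes had a start peak, and IFNα raised 6 and IFNγ 7 of them, with BST2 (tetherin) changed by 3.65 and 3.40.

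TRIM69, an interferon-inducible ligase known to act against vesicular stomatitis virus, had the most interferon-called peaks, 3 of 12 with IFNα and 4 of 12 with IFNγ. Its distal peak before the gene, toward B2M, the light chain of MHC class I, had the largest rise with interferon of all called TRIM peaks. It held 1.24, 0.412, 2.05 and 0.851 coverage per Mb in the unstimulated libraries. It held 7.19, 8.19, 8.66 and 6.71 with IFNγ and 4.58, 5.31, 5.26 and 5.50 with IFNα. All 8 interferon libraries lay above all 4 unstimulated libraries, and those of IFNγ above those of IFNα. The direct comparison of IFNα with IFNγ did not call this peak, and 5.41% of all tested peaks had no overlap between these groups. The change was 2.41 ± 0.35 with IFNγ (adjusted p = 1.85e-08) and 1.88 ± 0.35 with IFNα (adjusted p = 0.000159). No other cytokine called this peak.

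The neighboring peak of TRIM69 at chr15:44720858-44721358 rose from 0.890 ± 0.190 (SD, n = 4) to 5.30 ± 0.499 with IFNγ (2.07 ± 0.37, adjusted p = 2.27e-05) and to 3.28 ± 1.03 with IFNα (1.41 ± 0.37, adjusted p = 0.0343). The call with IFNα was lost when any of 7 of the 8 libraries was left out. Closer to the gene, the peak at chr15:44726566-44727066, chosen after its values were seen, held 10.5, 8.57, 8.91 and 12.4 in unstimulated cells and 16.8, 24.9, 18.3 and 21.0 with IFNγ, a change of 0.97 ± 0.18 (adjusted p = 4.81e-05). OSM also raised this peak, to 18.4 ± 2.01 (0.84 ± 0.18, adjusted p = 0.000471), and IFNα did not call it. The start peak at chr15:44728487-44728987 was already among the most open of all TRIM peaks, at 42.5 ± 5.78 in unstimulated cells, and reached 63.6 ± 2.79 with IFNγ (0.58 ± 0.11, adjusted p = 2.02e-05). Its change with IFNα was 0.41 ± 0.11 (adjusted p = 0.0268), was lost when any of 6 libraries was left out, and the groups overlapped. OSM raised the start peak as well (0.52 ± 0.11, adjusted p = 0.000137), a call lost with loess offsets. From the distal to the start peak the 4 IFNγ changes thus ran from 2.41 to 0.58 as the unstimulated level went from 1.14 to 42.5.

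TRIM22, a restriction factor for several viruses that is among the most interferon-responsive TRIM genes, opened at its start and closed with other cytokines. Its start peak (chr11:5689473-5689973, which also lies within the TRIM5 locus) held 9.78, 12.7, 11.3 and 8.78 in unstimulated libraries. It held 23.0, 22.6, 16.1 and 27.0 with IFNα and 22.9, 22.9, 20.7 and 19.4 with IFNγ, without overlap between the groups. The change was 1.01 ± 0.19 with IFNα (adjusted p = 0.000193) and 0.99 ± 0.19 with IFNγ (adjusted p = 7.05e-05). The same peak was lowered with IL-1β (-0.74 ± 0.19, adjusted p = 0.00620), TGF-β1 (-0.74 ± 0.19, adjusted p = 0.00555) and TNF (-0.63 ± 0.19, adjusted p = 0.0270). These 3 calls were less stable, since that of IL-1β was lost without unstimulated replicate 2 or IL-1β replicate 2, that of TNF without any of 5 libraries, and that of TGF-β1 with loess offsets, and in each of the 3 groups 1 library overlapped the unstimulated ones.

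TRIM14, an adaptor at mitochondria that works with the antiviral protein MAVS, had a start peak that passed the test with IFNα and with no other of the 10 cytokines. This peak at chr9:98119052-98119552, which holds the ISRE string shown above, had 6.60, 8.90, 4.00 and 8.21 in unstimulated libraries and 17.0, 14.9, 13.1 and 15.5 with IFNα. The change was 1.12 ± 0.21 (adjusted p = 0.000253), and the groups did not overlap. With IFNγ the libraries held 10.8, 9.15, 11.5 and 10.9, a change of 0.63 that was not called. The difference between IFNα and IFNγ at this peak was 0.49, and it was not called either.

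At TRIM31 the difference between the interferons passed its own test. TRIM31 promotes the aggregation of MAVS and the degradation of NLRP3, and its peak 940 bases before the start (chr6:30113780-30114280) was low in unstimulated libraries, at 0.784, 0.528, 0.451 and 0.716. It held 4.35, 4.40, 3.63 and 3.62 with IFNγ and 1.01, 0.765, 1.87 and 0.385 with IFNα, and the 4 IFNγ libraries lay above the other 8. The change with IFNγ was 2.01 ± 0.39 (adjusted p = 0.000130). IFNα against IFNγ gave -1.67 ± 0.39 (adjusted p = 0.00673), a call lost without IFNα replicate 4 and with a pseudocount of 0.1.

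TRIM25, TRIM38 and TRIM34 of the antiviral list had further peaks raised with interferon. TRIM25 ubiquitinates the RNA sensor RIG-I, and its promoter peak at chr17:56915639-56916139 (1.8 kb from the start, chosen after its values were seen) held 28.8, 27.6, 30.4 and 25.5 in unstimulated libraries. It held 41.6, 40.8, 43.5 and 36.2 with IFNγ, 38.3, 44.1, 37.2 and 43.6 with IFNα, 52.0, 40.4, 40.0 and 40.4 with TNF and 56.2, 52.6, 46.7 and 47.6 with OSM. None of these 16 libraries overlapped the unstimulated ones, and the changes were 0.52, 0.53, 0.61 and 0.84 with an SE of 0.12 each. TRIM38, which limits TNF and Toll-like receptor signaling, had an intronic peak (chr6:25971098-25971598) that rose from 4.98 ± 1.49 to 11.3 ± 1.45 with IFNγ (1.15 ± 0.22, adjusted p = 0.000133), whereas its start peak was not called. OSM raised the intronic TRIM38 peak to 10.4 ± 1.81 (1.03 ± 0.22, adjusted p = 0.000585) and IFNα to 9.67 ± 2.37 (0.91 ± 0.22, adjusted p = 0.0162), the latter call being lost without unstimulated replicate 3 or IFNα replicate 1. An intronic peak of TRIM34 at chr11:5624704-5625204, also chosen after its values were seen, rose from 7.48 ± 1.37 to 13.5 ± 2.35 with IFNα (0.82 ± 0.20, adjusted p = 0.0204), a call lost without unstimulated replicate 3 or 4 or IFNα replicate 2.

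**Figure D2:**
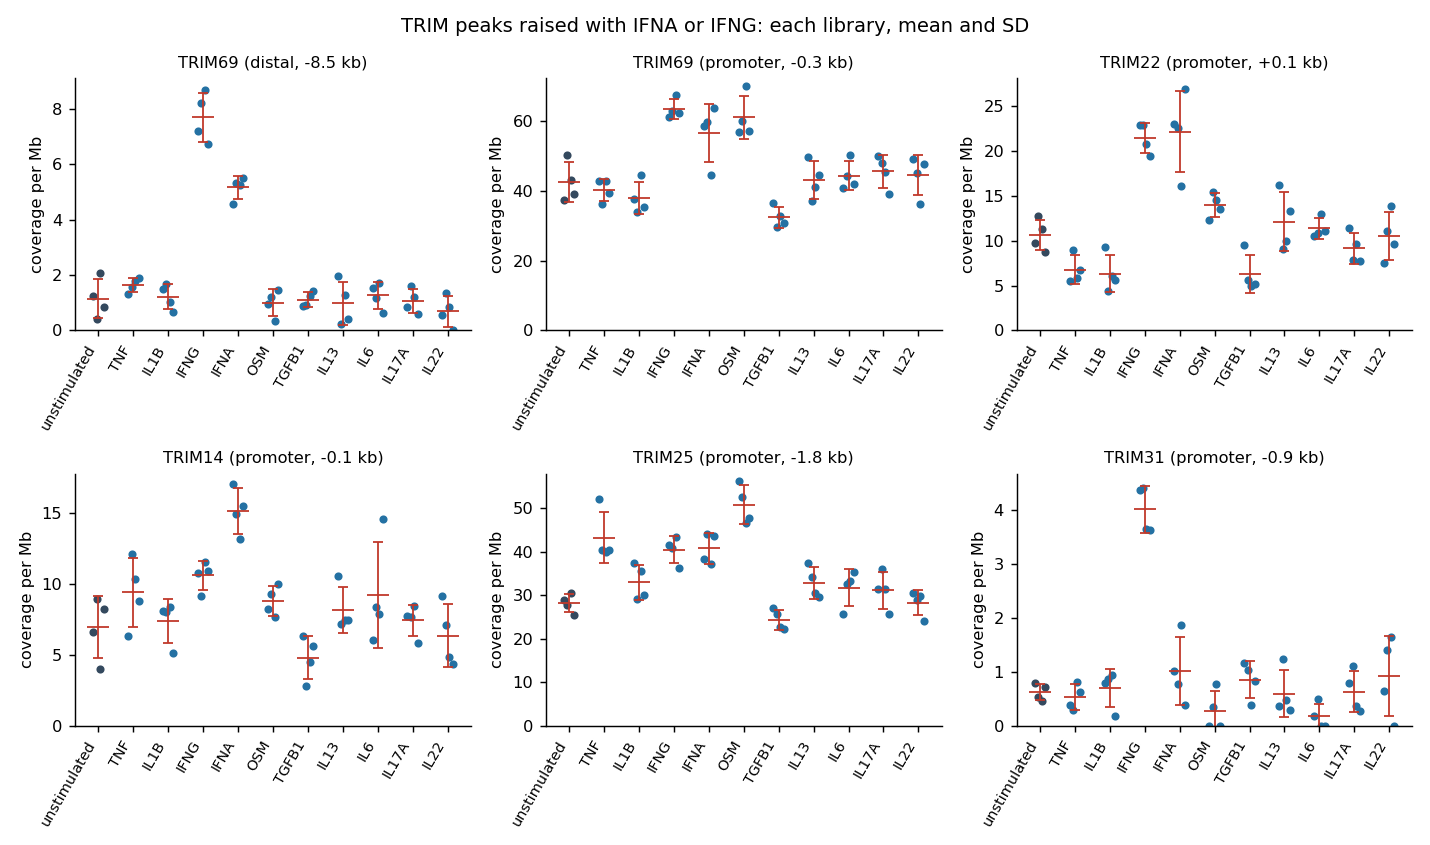
Coverage per Mb in each of the 44 libraries (points) with the mean and SD of each group of 4 (red), at the TRIM69 distal and start peaks, the start peaks of TRIM22, TRIM14 and TRIM31 and the promoter peak of TRIM25. At the TRIM69 distal peak the IFNG libraries sit between 6.71 and 8.66 and the IFNA libraries between 4.58 and 5.50, above the highest unstimulated library at 2.05.

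IFNγ also changed peaks of TRIM genes outside the antiviral list. An intronic peak of TRIM62, a ligase that acts on the adaptor CARD9, rose from 2.98 ± 0.871 to 6.39 ± 0.603 (1.02 ± 0.28, adjusted p = 0.0256), and an intronic peak of TRIM35 rose from 1.07 ± 0.715 to 2.78 ± 0.322 (1.25 ± 0.34, adjusted p = 0.0241). A distal peak of TRIM2, a ligase of neurons, fell from 4.99 ± 1.20 to 2.28 ± 0.159 (-0.96 ± 0.28, adjusted p = 0.0428), and a peak of TRIM66 fell from 23.8 ± 1.39 to 16.6 ± 3.09 (-0.52 ± 0.14, adjusted p = 0.0164). Each of these 4 calls was lost when some single library was left out, including IFNγ replicate 3 in all 4. With IFNα a distal peak of TRIM27 rose from 2.47 ± 0.879 to 5.33 ± 1.16 (1.00 ± 0.27, adjusted p = 0.0356), and its call was lost without any of 5 libraries.

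IFNα and IFNγ were compared directly to ask where the interferon types differ. The comparison called 6 TRIM peaks of 6 genes (background 1.03%), 4 higher with IFNα (0.21%) and 2 lower (0.819%). Beside TRIM31, the intronic peak of TRIM55 was lower with IFNα (3.07 ± 0.684) than with IFNγ (6.80 ± 0.480; -1.05 ± 0.25, adjusted p = 0.00624). The start peak of TRIM6, which makes ubiquitin chains that activate IKKε, was higher with IFNα (5.15 ± 0.788) than with IFNγ (2.19 ± 1.49; 1.25 ± 0.29, adjusted p = 0.00442), and so was a TRIM22 intronic peak 909 bases after the start (14.3 ± 3.38 against 7.36 ± 1.11; 0.90 ± 0.21, adjusted p = 0.00460). None of the 6 held in every fit with a library left out. Only the TRIM31 peak was also called against unstimulated cells, with IFNγ. The other peaks differ between the interferons but were not called as a response to either. TRIM69 and the TRIM22 start peak were not among the 6, with differences of -0.18 and 0.02 at the start peaks.

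TNF and IL-1β raised some peaks around signaling TRIM genes, away from the start peaks. The list of 8 regulators of NF-κB and STAT signaling was also chosen with earlier results of these data known. It has 128 peaks, 76 of them of TRIM8. Of these 128, TNF raised 10 (7.81%, against 2.68% of all tested peaks) and lowered 0 (against 1.46%). IL-1β raised 5 (3.91%, against 1.44%) and lowered 2 (1.56%, against 1.75%). The peaks raised with TNF were of TRIM8 (5), TRIM27 (3) and TRIM37 (2), and those raised with IL-1β of TRIM8 (4) and TRIM37 (1). The median changes of the 128 peaks with TNF and IL-1β were 0.12 and 0.08 against -0.02 and 0.01 for all tested peaks. OSM raised 16 of the same peaks (12.5%, against 4.13%) and IL-13 raised 6 (4.69%, against 0.756%). None of the 7 start peaks of these genes was called with either. Of the 24 TRIM peaks raised with TNF, 8 hold the NF-κB string, 9 the AP-1 string and 6 the GAS string. Of the 13 raised with IL-1β the counts are 4, 6 and 3. Across all peaks 8.48% hold the NF-κB string, 25.7% the AP-1 string and 17.2% the GAS string. The shares among all peaks raised with TNF or IL-1β were not computed, and the part of these strings was not tested.

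The largest TNF response was in an intron of TRIM37, the histone-directed and centrosomal ligase lost in mulibrey nanism. The peak at chr17:59074483-59074983, 32188 bases into the gene, held 1.85, 2.25, 1.91 and 1.62 in unstimulated libraries and 12.9, 12.2, 11.2 and 10.9 with TNF. The groups were far apart, and the change was 2.36 ± 0.29 (adjusted p = 1.06e-11). With IL-1β the peak held 4.10, 2.24, 4.62 and 2.95, and IL-1β against TNF gave -1.67 ± 0.29 (adjusted p = 1.87e-05). Both calls held in every alternative tried. The start peak of TRIM37 was not called with TNF or IL-1β.

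TRIM8, a ligase that promotes NF-κB activation downstream of TNF and IL-1 receptors, had 5 peaks raised with TNF and 4 raised and 2 lowered with IL-1β among its 76. The peak 37903 bases before its start, at chr10:102604350-102604850 in an intron of SUFU, held 0.882, 1.79, 2.33 and 2.39 in unstimulated libraries. It held 7.56, 7.34, 6.41 and 8.32 with TNF and 5.80, 5.94, 4.64 and 7.40 with IL-1β, and all 8 lay above the unstimulated libraries. The change was 1.80 ± 0.29 with TNF (adjusted p = 2.29e-07) and 1.50 ± 0.29 with IL-1β (adjusted p = 4.83e-05). The neighboring peak at chr10:102605681-102606181 changed by 1.42 ± 0.37 with IL-1β (adjusted p = 0.00682; not called without unstimulated replicate 4 or IL-1β replicate 3). In the same intron region a peak at chr10:102615956-102616456 fell with IL-1β from 4.73 ± 0.718 to 2.09 ± 1.24 (-1.16 ± 0.27, adjusted p = 0.00233; not called without IL-1β replicate 4), and at chr10:102676205-102676705, inside ARL3, coverage fell from 13.4 ± 0.506 to 7.64 ± 0.838 (-0.78 ± 0.17, adjusted p = 0.000496).

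**Figure D3:**
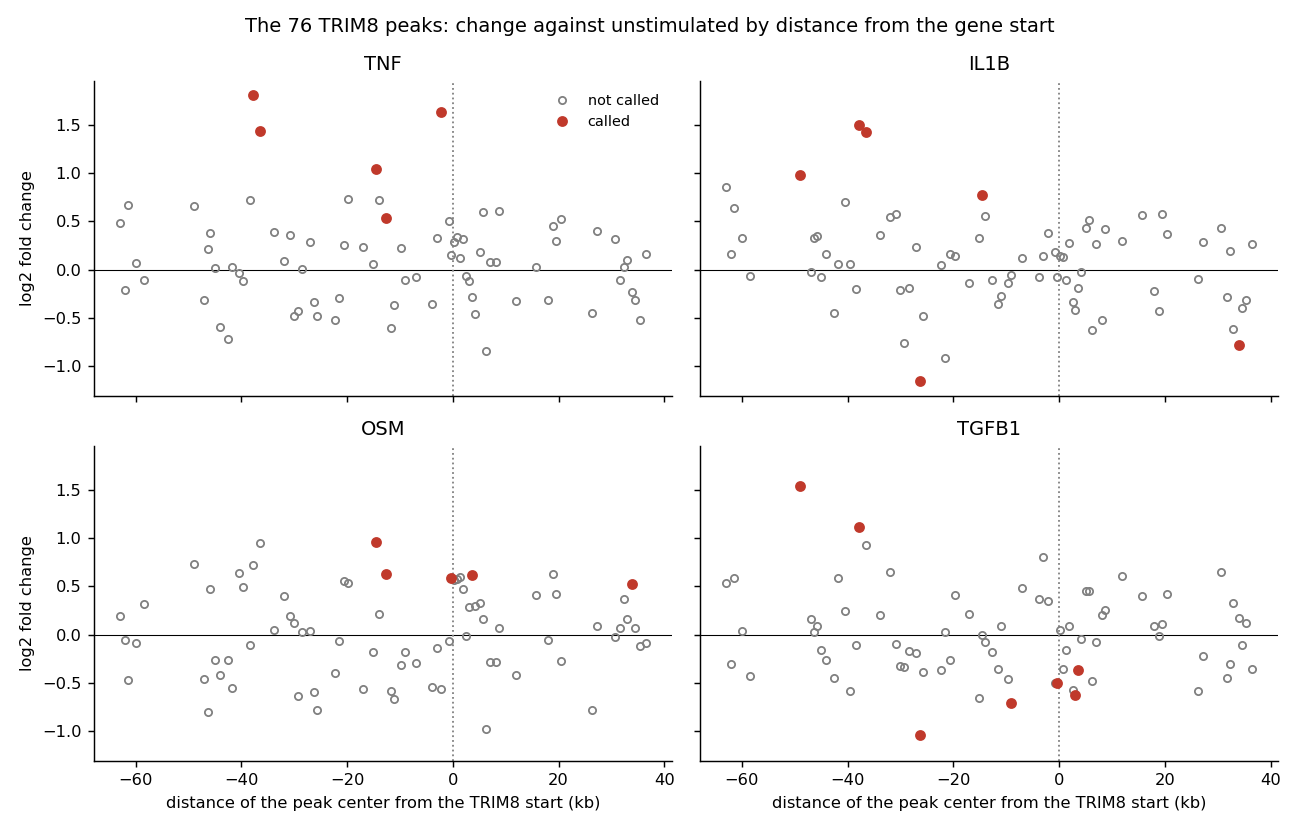
Change against unstimulated (log2 scale) of each of the 76 TRIM8 peaks by the distance of its center from the TRIM8 start in kb, for TNF, IL1B, OSM and TGFB1, with called peaks filled red. The TNF and IL1B changes of 1.80 and 1.50 belong to the same peak 37903 bases before the start, and the called TGFB1 peaks include both raised and lowered ones.

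Further TNF peaks lay far from TRIM36 and TRIM56. A distal peak 111582 bases from the start of TRIM36, a ligase of microtubules, held 0.413, 1.29, 0 and 0.743 in unstimulated libraries and 4.35, 3.35, 3.22 and 3.62 with TNF (2.03 ± 0.38, adjusted p = 1.97e-05). A distal peak of TRIM56, which ubiquitinates the DNA-sensing adaptor STING, held 1.21, 0.0126, 0.936 and 1.00 and rose to 4.08, 4.86, 2.27 and 3.68 (1.81 ± 0.39, adjusted p = 0.000396). In both the TNF libraries lay above all unstimulated ones. Introns of TRIM35 held a pair of peaks raised with IL-1β, one from 3.28 ± 0.298 to 8.72 ± 2.14 (1.26 ± 0.25, adjusted p = 0.000101) and the other from 1.07 ± 0.715 to 3.91 ± 1.40 (1.62 ± 0.34, adjusted p = 0.000378). The second has an unstimulated replicate 3 at 0, and its IL-1β call was lost without that library. Neither peak was particular to IL-1β. TNF raised the first by 1.49 and the second by 1.37, and OSM raised them by 0.86 and 1.19. The second is also the TRIM35 peak raised with IFNγ above.

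IL-1β closed the distal peak of TRIM45, a ligase known to restrain MAPK signaling, in a change that TNF did not share. The peak at chr1:117142236-117142736, 19899 bases before the start, held 13.1, 13.3, 15.8 and 10.6 in unstimulated libraries and 5.89, 3.41, 4.31 and 3.79 with IL-1β. With TNF it held 10.7, 14.0, 16.1 and 8.85, so that only the IL-1β libraries stood apart. The change with IL-1β was -1.51 ± 0.19 (adjusted p = 1.87e-11), and IL-1β against TNF gave -1.40 ± 0.19 (adjusted p = 2.89e-09). Both held in every alternative tried. IL-1β further lowered a distal peak of TRIM33 (6.58 ± 1.78 to 3.52 ± 0.717, -0.80 ± 0.23, adjusted p = 0.0270) and one of TRIM67 (3.15 ± 1.23 to 1.22 ± 0.663, -1.11 ± 0.27, adjusted p = 0.00410), calls that were both lost without unstimulated replicate 3 or IL-1β replicate 2, and the groups overlapped at TRIM67.

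The direct comparison of IL-1β with TNF called 6 TRIM peaks of 5 genes (background 1.32%), 1 higher with IL-1β (0.218%) and 5 lower (1.10%). The labels give these cytokines at different doses, 0.1 and 10 ng/ml, parts of the study's text give a lower dose of IL-1β, and the difference between agents cannot be told apart from that between doses. Beside TRIM37 and TRIM45, an exonic peak of TRIM56 was lower with IL-1β (3.02 ± 0.677) than with TNF (7.71 ± 1.26; -1.23 ± 0.24, adjusted p = 0.000322), as were a pair of TRIM8 peaks. Against unstimulated cells neither cytokine called this TRIM56 peak or the TRIM8 peak at chr10:102661125-102661625. The other TRIM8 peak of the pair was raised with TNF. The peak of TRIM34 that was higher with IL-1β (3.04 ± 0.370) than with TNF (1.49 ± 1.45; 1.13 ± 0.31, adjusted p = 0.0284) had overlapping groups and lost its call without any of 6 libraries. TNF lowered that TRIM34 peak against unstimulated cells (2.94 ± 0.596; -1.08 ± 0.31, adjusted p = 0.0181), also with overlap, and lowered an intronic peak of TRIM29 from 11.0 ± 0.949 to 6.97 ± 0.758 (-0.63 ± 0.20, adjusted p = 0.0468), a call lost in 9 of 14 alternatives.

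**Figure D4:**
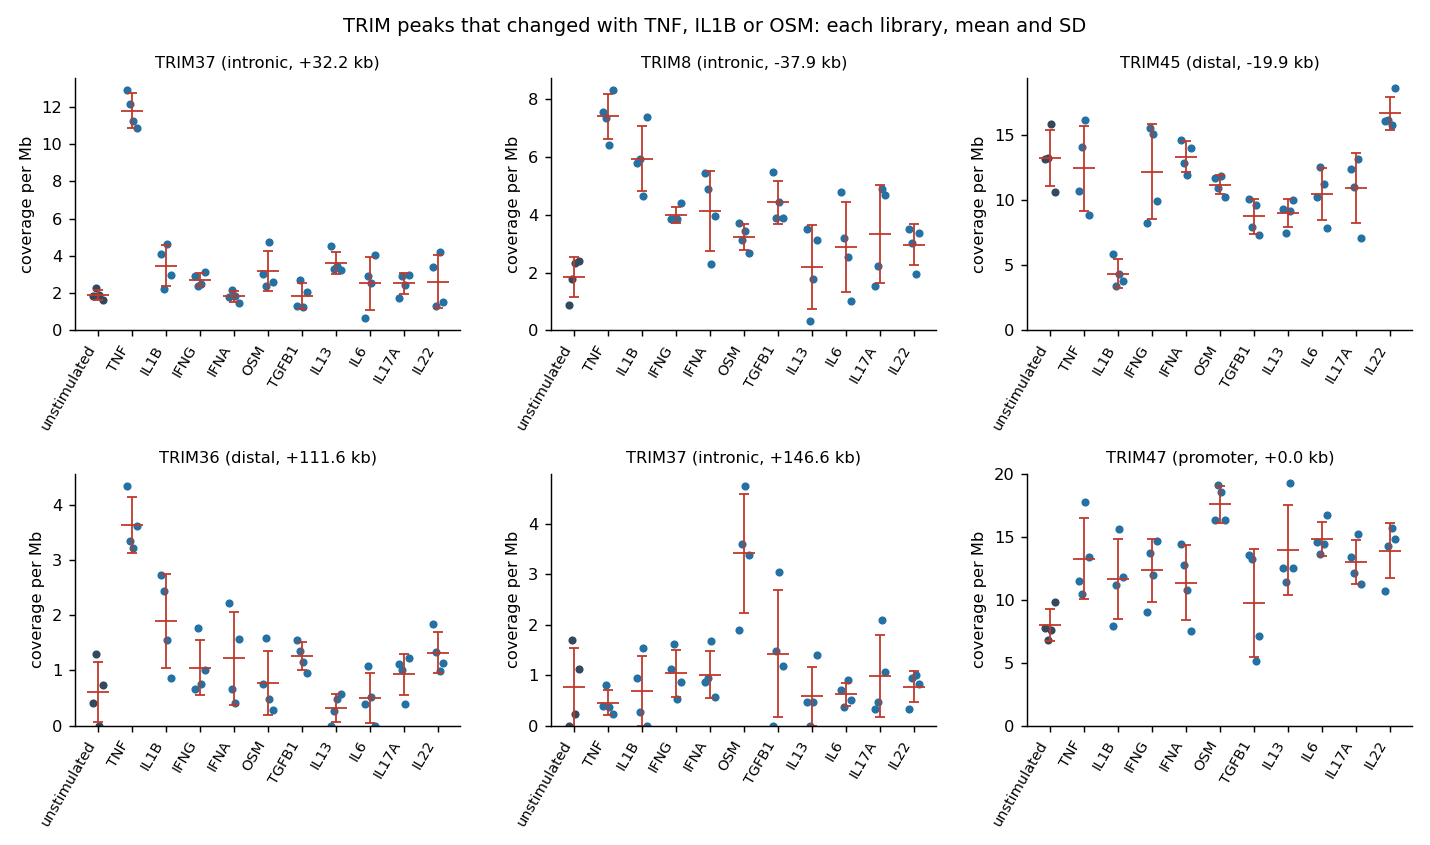
Coverage per Mb in each of the 44 libraries (points), with the mean and SD of each group of 4 (red). The peaks are an intronic TRIM37 peak raised with TNF, the TRIM8 peak in SUFU and the distal TRIM45 peak lowered with IL1B. Also shown are the distal TRIM36 peak, a peak assigned to TRIM37 inside PPM1E raised with OSM and the TRIM47 start peak. At the TRIM45 peak the IL1B libraries sit between 3.41 and 5.89, below the lowest unstimulated library at 10.6.

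OSM, a cytokine of the IL-6 family, called the most TRIM peaks, 43 raised and 3 lowered, but their number depended on the scaling. With library totals alone 24 were raised and 6 lowered, and with loess offsets 17 and 2. OSM shifted the median of all peaks by -0.10, and it raised 9.32% of all promoter peaks against 3.49% of all distal peaks, so changes of start peaks are read with that in view. The share of bases that are G or C had a median of 49.6% in the raised TRIM peaks and 47.8% in all TRIM peaks, and its part in the result was not tested.

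Peaks away from promoters gave the largest OSM changes, and those given here with their values held in every alternative. A peak 146608 bases into the region assigned to TRIM37, in an intron of PPM1E, held 0, 1.69, 0.227 and 1.12 in unstimulated libraries and 1.90, 3.61, 4.76 and 3.39 with OSM (1.82 ± 0.40, adjusted p = 0.000712). An intronic peak of TRIM59 rose from 2.08 ± 0.776 to 6.57 ± 1.42 (1.48 ± 0.29, adjusted p = 6.93e-05). An intronic TRIM37 peak at chr17:59046180-59046680 rose from 1.57 ± 0.802 to 4.96 ± 1.29 (1.46 ± 0.32, adjusted p = 0.000696). TRIM27, first known through its fusion with the RET kinase, had 5 of 17 peaks raised, where OSM raised 4.13% of all tested peaks. IL-13 raised 4 and TNF raised 3 of the same 17 peaks. The distal TRIM27 peak at chr6:28953007-28953507 held 2.22, 3.30, 1.35 and 3.03 in unstimulated libraries and 8.19, 7.90, 6.02 and 7.18 with OSM (1.44 ± 0.27, adjusted p = 2.44e-05). A distal peak of TRIM2 rose from 2.30 ± 0.504 to 6.53 ± 0.522 (1.34 ± 0.28, adjusted p = 0.000327).

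The start peak of TRIM47 (chr17:75878365-75878865) was raised with 4 cytokines. TRIM47 is a ligase of which endothelial and tumor roles are known. The peak held 7.76, 6.84, 7.64 and 9.84 in unstimulated libraries and 16.4, 19.2, 18.6 and 16.4 with OSM (1.10 ± 0.18, adjusted p = 2e-06), in which every library lay above the unstimulated ones. It rose as well with IL-13 (14.0 ± 3.62; 0.75 ± 0.18, adjusted p = 0.00905), TNF (13.3 ± 3.23; 0.68 ± 0.18, adjusted p = 0.00997) and IL-6 (14.6, 13.6, 14.5 and 16.8, in replicate order; 0.86 ± 0.18, adjusted p = 0.0157). All of these comparisons share the unstimulated libraries, and the calls with IL-13, TNF and IL-6 were lost without unstimulated replicate 2, those of IL-13 and TNF also without replicate 3 of the cytokine group. The IL-6 call, the only TRIM peak called with IL-6, was also lost without unstimulated replicate 3 or without IL-6 replicate 4, the shallowest library (adjusted p = 0.208). With IL-22 the change was 0.76 ± 0.18 and was not called (adjusted p = 0.0508). The OSM start peaks of TRIM69, TRIM26 and TRIM24 changed by 0.52, 0.44 and 0.36, and with loess offsets none was called and that of TRIM24 turned to -0.02.

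TGF-β1 lowered more TRIM peaks than it raised, and the balance rested on the scaling. The 6 raised and 22 lowered peaks became 7 and 12 with library totals, 8 and 10 with median-of-ratios scaling and 9 and 3 with loess offsets. Among all peaks TGF-β1 lowered 8.90% of promoter peaks and 2.15% of distal ones, and the lowered TRIM peaks had a median of 58.8% G or C against 47.8% for all TRIM peaks, whose part in the result was not tested. The start peak of TRIM21, the cytosolic antibody receptor, kept its call throughout, and held 17.7, 16.3, 9.67 and 11.6 in unstimulated libraries and 9.29, 5.17, 8.80 and 4.79 with TGF-β1 (-0.95 ± 0.18, adjusted p = 7.18e-05). The start peaks of TRIM37 (-0.67 ± 0.13) and TRIM24 (-0.53 ± 0.10) lost their calls with loess offsets, and that of TRIM69 (-0.38 ± 0.11) turned to 0.02.

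Among the named peaks that TGF-β1 raised, one upstream of TRIM8 changed most. At chr10:102593264-102593764 coverage was 1.81, 1.25, 2.52 and 1.93 in unstimulated libraries and 9.85, 5.47, 6.24 and 4.61 with TGF-β1 (1.54 ± 0.29, adjusted p = 3.40e-05), and the groups did not overlap. TRIM33, which acts on SMAD4 and TGF-β signaling, had a raised intronic peak (0.927 ± 0.989 to 2.97 ± 0.855; 1.45 ± 0.36, adjusted p = 0.00442), with overlap from unstimulated replicate 2 at 2.41, and a lowered distal peak (4.44 ± 1.04 to 1.60 ± 0.664; -1.27 ± 0.28, adjusted p = 0.000623). A peak of TRIM55, a ligase of the sarcomere, rose from 4.76 ± 0.499 to 9.83 ± 1.34 (0.97 ± 0.25, adjusted p = 0.00795). With IL-13 the same TRIM55 peak fell to 2.25 ± 0.973 (-0.999 ± 0.25, adjusted p = 0.0133; not called without IL-13 replicate 1 or 2 or unstimulated replicate 1). The intronic peak of TRIM32, raised with TGF-β1 (1.06 ± 0.28, adjusted p = 0.00795), overlapped the unstimulated group and was not called without TGF-β1 replicate 1 or unstimulated replicate 2, and lowered peaks of TRIM10 (-1.17 ± 0.35) and TRIM3 (-1.01 ± 0.30 and, at its start, -0.47 ± 0.15) lost their calls under each of the 3 other scalings.

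Several peaks fell outside the naming rule and were picked after their values were seen. An intronic peak assigned to TRIM32, a ligase of muscle and nerve, held 2.35, 1.29, 3.47 and 2.99 in unstimulated libraries and 9.85, 7.11, 8.28 and 7.11 with TNF (1.56 ± 0.28, adjusted p = 7e-06). An intronic peak of TRIM26, which acts on the interferon regulatory factor IRF3, held 1.72, 1.86, 1.69 and 2.41 in unstimulated libraries and rose to 6.54 ± 1.18, the lowest library at 5.29, with TNF (1.54 ± 0.31, adjusted p = 0.000154). In both the TNF libraries lay well above the unstimulated ones, and the calls held in every alternative. With OSM a peak of TRIM23 inside SGTB held 12.7, 9.79, 7.85 and 10.7 against 4.76, 2.62, 4.90 and 4.05 (1.24 ± 0.24, adjusted p = 5.80e-05). A peak of TRIM65, a ligase of the RNA sensor MDA5, held 18.4, 26.0, 23.3 and 15.8 with OSM against 9.49, 11.9, 10.5 and 9.74 (0.95 ± 0.17, adjusted p = 9.58e-06), and both OSM calls held in every alternative. A TRIM45 peak inside VTCN1 rose with OSM from 8.52 ± 2.56 to 17.7 ± 1.78 (1.05 ± 0.19, adjusted p = 8.09e-06), unlike the distal TRIM45 peak described above, which OSM did not raise or lower past the test.

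IL-13, the type 2 cytokine, raised 8 TRIM peaks of 4 genes. The largest was an intronic peak of TRIM37 at chr17:58992592-58993092, which held 6.24, 3.48, 4.74 and 4.19 in unstimulated libraries and 7.74, 15.4, 12.1 and 13.0 with IL-13 (1.27 ± 0.24, adjusted p = 9.04e-05), a call kept in every alternative. Distal peaks of TRIM27 accounted for 4 of the 8. That at chr6:28950891-28951391 rose from 3.16 ± 1.22 to 6.63 ± 0.277 (1.04 ± 0.26, adjusted p = 0.0119) and was not called without unstimulated replicate 3, the lowest of its group. The distal peak of TRIM67 that IL-1β lowered (chr1:231139820-231140320) rose with IL-13 from 3.15 ± 1.23 to 7.11 ± 1.70 (1.10 ± 0.27, adjusted p = 0.0111). The IL-13 call was lost without IL-13 replicate 1 or unstimulated replicate 1 or 4. OSM raised this TRIM67 peak as well (1.14 ± 0.27, adjusted p = 0.00258).

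IL-17A and IL-22 called no TRIM peak. With IL-17A, 0.0305% of all tested peaks were called by limma (0.0275% raised, 0.00295% lowered), and 44 of 660 TRIM peaks (6.67%, against 6.29% of all tested peaks) had an unadjusted p under 0.05, the lowest adjusted p being 0.0799. With IL-22, 0.084% were called (0.0803% raised, 0.00368% lowered), 60 TRIM peaks (9.09%, against 7.59%) had an unadjusted p under 0.05, and the lowest adjusted p was 0.0508. Neither shows that the peaks did not change.

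**Figure D5:**
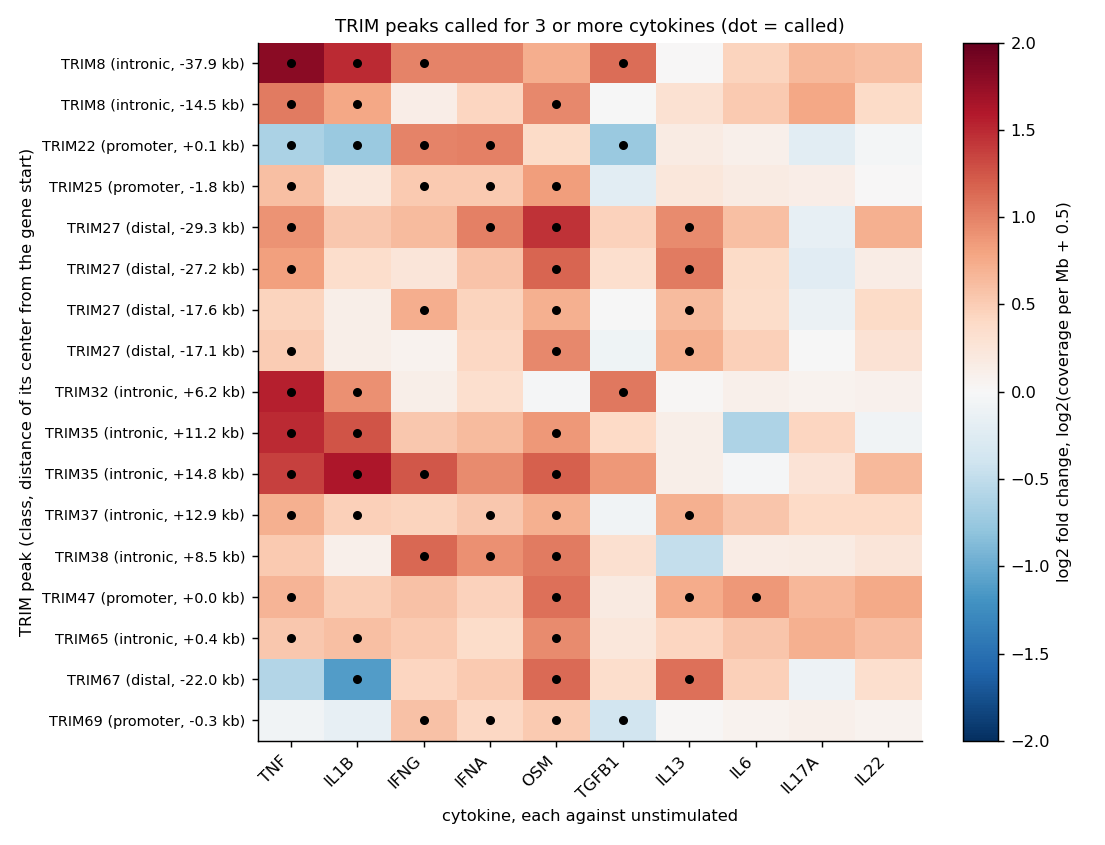
Change against unstimulated (color, log2 scale) of the TRIM peaks called for 3 or more cytokines, with a dot where the peak was called and with class and distance from the gene start beside each name. The peaks were chosen after their values were seen and all comparisons share the unstimulated libraries. The TRIM22 start peak is raised with IFNA and IFNG by 1.01 and 0.99 and lowered with TNF, IL1B and TGFB1.

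Few peaks of the other gene groups were called with interferon, as few of all peaks were (0.651% with IFNα and 1.57% with IFNγ). None of the 4 microtubule TRIM genes with 59 peaks, the 3 muscle-type genes with 21 peaks, or the 5 genes of membrane repair, autophagy and epithelium with 89 peaks had a peak called with IFNα or IFNγ. Of the NHL-domain genes TRIM2, TRIM3, TRIM32 and TRIM71, with 103 peaks, IFNγ lowered 1, and of the 43 peaks of TRIM24, TRIM33 and TRIM66 IFNγ lowered 1 as well. TGF-β1 lowered 4 of the NHL-domain peaks (3.88%, against 2.87% of all tested peaks) and raised 1, where its lowered calls depended on the scaling, and OSM raised 2 and lowered 2, TNF raised 2, IL-1β raised 1 and IL-13 lowered 1. Recently duplicated genes, whose near-identical copies can split reads, had 13 peaks in TRIM43 and TRIM77, of which TGF-β1 lowered 1. TRIM proteins with other names (PML, MID1, MID2, MEFV, TRIML1, TRIML2 and CMYA5) all had a start peak, and the calls among them were those of PML, the organizer of nuclear bodies, with OSM (0.42, adjusted p = 0.0497) and TGF-β1 (-0.69, adjusted p = 0.000121).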

How the data were processed

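ATAC-seq libraries were made by the authors with the Omni-ATAC protocol and processed with the ENCODE ATAC-seq pipeline. The labels name hg38 and MACS2. The authors deposited signal, that is, read coverage summed over each peak, unscaled and not a read count, and named each peak by its coordinates, gene and class. The study's methods describe filters on peak rank, p-value and low abundance for a smaller set of libraries, and whether these were applied to this table is not given in the sources used here. Reads count by the bases they place in a peak, not by cut site.

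Columns were matched to samples by the library number in the labels. Coverage was divided by the library total in Mb and by a composition factor (trimmed mean of log2 ratios to the geometric mean library, trimming 30% of ratios and 5% of means at each end), 0.5 was added and log2 taken. Peaks with a log2 mean at or below -3 were left out (227), and 407156 were tested. limma 3.58.1 (R 4.3.3) was fitted to all 44 libraries with group as the only term and eBayes with a trend, and Benjamini-Hochberg adjustment ran over all tested peaks of each of 12 contrasts. The fit was also run on simulated coverage with known changes set in the TNF group. That simulation used no composition factor, so it does not bear on the choice of scaling. Mean ± SD is of coverage per Mb over 4 libraries. Precision follows depth, and intervals of counting error are not given for coverage.

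Named peaks were, per contrast, up to 5 called raised and 5 called lowered with the largest change and a mean of at least 1 coverage per Mb, and the start peaks of the listed genes; others are named as chosen after their values were seen. The members and lists were chosen with earlier results of these data known. Alternatives were library totals, median-of-ratios scaling, loess offsets, a pseudocount of 0.1, no filter, a replicate block and leaving out each library. Gene positions are from GENCODE v44 on hg38. Coordinates are as deposited. The sequence of the distal TRIM69 peak is not reported here.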

Additional observations from a re-analysis of the deposited data

Results flagged for a closer look

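Named peaks were checked for a library far from the other 3 of its group by Dixon's test, and 6 of 108 groups were flagged, where chance flags about 1 in 20. In unstimulated cells replicate 2 was the highest at the TRIM66 peak (25.9 coverage per Mb) and at the intronic TRIM33 peak (2.41) and the lowest at the distal TRIM56 peak (0.0126), and replicate 3 was the lowest at a TRIM35 peak (0) and at a distal TRIM27 peak (1.36). IL-1β replicate 1 was the highest of its group at the distal TRIM33 peak (4.59).

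Differences between IFNα and IFNγ that passed limma's test over all peaks were -1.67 for TRIM31 and -1.05 for TRIM55, and 1.33 for a TRIM8 intronic peak, 1.25 for the TRIM6 start peak, 0.90 for a TRIM22 intronic peak and 1.46 for a distal TRIM29 peak. At the TRIM29 peak every IFNγ library held no more than 3 read equivalents, so the mean with IFNα (1.14) was at least 2.41-fold higher than that floor (mean of the floors per library), and the fitted value depends on the pseudocount. Differences between IL-1β and TNF were -1.40 for TRIM45, -1.23 for TRIM56, -0.65 and -0.88 for a pair of TRIM8 peaks, 1.13 for TRIM34 and -1.67 for TRIM37.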

How the results depend on the processing

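Counts of called TRIM peaks stayed within 1.5 times the main count in 133 refits and moved further in 35. OSM went from 46 to 30 with library totals, 28 with median-of-ratios scaling and 19 with loess offsets, and TGF-β1 from 28 to 18 and 12 with the last pair. IL-6 went from 1 to 2 with each of these 3 scalings, and IL-17A from 0 to 1. With a replicate block IL-6 gave 2 and IL-22 gave 1, and the block moved no other count by over 1.5 times. The labels share replicate numbers across groups, but same-numbered libraries did not deviate together (40 correlations between -0.0179 and 0.0325) and 15 of 40 cytokine libraries correlated best with their own number. Leaving out 1 library gave 15 to 25 calls for TNF, 13 to 19 for IL-1β, 9 to 13 for IFNγ, 5 to 14 for IFNα, 34 to 46 for OSM, 18 to 32 for TGF-β1, 5 to 9 for IL-13, 0 to 2 for IL-6, 0 to 1 for IL-17A and for IL-22, 4 to 7 for IL-1β against TNF and 3 to 7 for IFNα against IFNγ. Moves of over 1.5 times came without unstimulated replicate 3 (TNF 15, IL-1β 13, IFNα 5), replicate 1 (IL-1β 14, IL-13 6), replicate 2 (TGF-β1 18) and replicate 4 (IFNα 6), and without IL-1β replicate 2 (14), IFNγ replicate 3 (9), IFNα replicate 2 (5) and IL-13 replicate 1 (5). IFNα against IFNγ gave 3 without IFNγ replicate 3 or 4 or IFNα replicate 4.

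Of 170 called pairs of peak and contrast, 57 were called under every alternative and 3 changed sign, all with loess offsets. These were the TRIM69 start peak (0.0150) and a TRIM8 intronic peak (0.0231) with TGF-β1, and the TRIM24 start peak with OSM (-0.0157). The cause was not tested. Shallow libraries limit low peaks, since 3 read equivalents are worth 0.273 to 1.51 coverage per Mb.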
